A study of Trichoderma reesei with 6 samples.

Results

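A set of 232 genes of *T. reesei*, 2.54% of the 9126 genes on the array, had a low transcript level on glucose and a higher level on both lactose and glycerol. The genes were chosen by the measured values themselves. The mean log2 signal on glucose lay at least 1 log2 unit (2-fold) below the mean on lactose and below the mean on glycerol, and the lactose and glycerol means were less than 1 log2 unit apart. 3 hydrophobin genes were left out by name, of which *hfb2* and *hfb3* met these limits and *hfb1* did not, so that 234 genes met them in all. As the choice used all 3 comparisons between carbon sources, the differences of the 232 genes are given as a description and carry no test.

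The strain was QM9414, an early cellulase-producing mutant of the saprotrophic ascomycete *T. reesei*, in all groups. Mycelia were harvested from shake flasks with 10 g/l of lactose, glycerol or glucose, and RNA of each carbon source was hybridised to 2 single-colour arrays. The labels give 28 h of growth on lactose and 24 h on glycerol and glucose, whereas the methods give 24 h for all, so that growth on lactose and a later harvest cannot be told apart. The labels speak of duplicate flasks but also of mixed replicate mycelia, and the spread between 2 arrays may therefore be partly technical. The methods describe mycelia grown in flasks as pre-grown on glycerol before their transfer to the carbon source under study. In RNA from whole mycelium, fewer cells that transcribe a gene and less transcript per cell cannot be told apart.

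Glucose represses genes for the use of other carbon sources in many fungi, a response called carbon catabolite repression. In *T. reesei* the zinc finger protein CRE1 is its best known repressor, and cellulase and hemicellulase genes are among its targets. Lactose is a disaccharide of glucose and galactose that induces cellulases in this fungus, and glycerol is a carbon source that neither represses nor induces them strongly.

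The 232 genes were a median of 3.70-fold higher on lactose than on glucose and 3.20-fold higher on glycerol than on glucose. On the log2 scale the lactose minus glucose difference ran from 1.01 to 6.90 with a median of 1.89, and the glycerol minus glucose difference from 1.00 to 7.25 with a median of 1.68. Over all 9126 genes the same medians were -0.06 and -0.03. The standard errors of the members' differences in the limma fit had a median of 0.14 and ran from 0.11 to 0.26. In every one of the 232 genes each lactose and each glycerol array lay above both glucose arrays, an order that 18.9% of all genes showed. By the adjusted p of limma all 232 were higher on lactose than on glucose, beside 29.0% of all genes, and all were higher on glycerol than on glucose, beside 20.3%. Both calls together were made for 11.5% of all genes. The limits of the choice used these contrasts, and nothing is read from the counts.

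**Figure D1:**
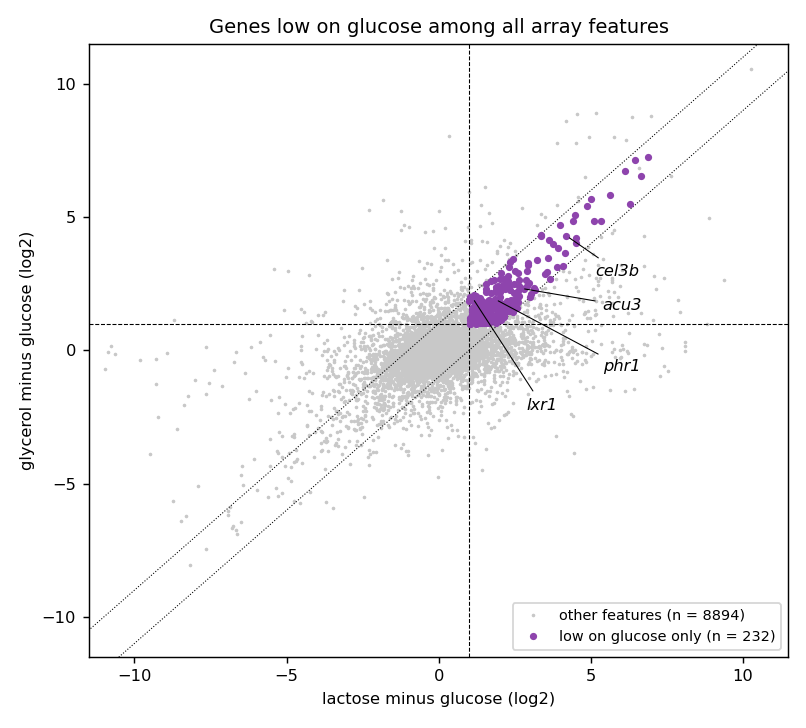
Difference in mean log2 signal between lactose and glucose (horizontal axis) and between glycerol and glucose (vertical axis) for all 9126 genes, with the 232 genes low on glucose only in purple and the other 8894 in grey. Dashed lines mark a difference of 1 log2 unit from glucose and dotted lines a difference of 1 between lactose and glycerol; most members lie near the corner of these limits and 15 lie 4 or more log2 units above glucose on both other carbon sources.

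Small differences made up most of the set. The smaller of the differences from glucose was between 1 and 2 log2 units in 166 genes, between 2 and 3 in 40, between 3 and 4 in 11, and at least 4 (16-fold) in 15. In 117 genes both differences stayed under 2 log2 units (4-fold). The limit itself cut through a dense range of genes, with 69 members within 0.25 log2 units of it. The last gene inside, Trire2:104856, was 1.24 log2 units above glucose on lactose and 1.00 on glycerol. The first outside, Trire2:123680, was 1.86 above glucose on lactose and 0.997 on glycerol. Trire2:103455 and Trire2:110491 also lay just inside, and Trire2:5844 and Trire2:62100 just outside.

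With the same limits turned to the other patterns, 719 genes were high on lactose only, 467 were low on lactose only, 281 were high on glucose only, 232 were high on glycerol only and 187 were low on glycerol only. A further 194 genes were at least 1 log2 unit above glucose on both other carbon sources but differed by 1 or more between these, 139 of them being higher on lactose and 55 higher on glycerol. The members thus form the part of a broader group of genes low on glucose in which the lactose and glycerol signals were close. Trire2:54870, which the study annotates as an acetate-CoA ligase, was outside by a lactose minus glycerol difference of 1.01.

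Only 4 of the 232 genes have a symbol in RefSeq (235 of all array genes have one), although every member has a RefSeq locus. None is annotated in the tables of the study. Those tables list genes that differed on lactose from both other carbon sources by more than 2-fold, and the choice of genes with similar lactose and glycerol signals keeps the members out of them. The members without a symbol are therefore given here by their Trire2 protein ID, with no function.

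The first of the genes with a symbol, *acu3* (Trire2:21758), carries the name of the isocitrate lyase gene of *Neurospora crassa*. Isocitrate lyase opens the glyoxylate cycle, which lets cells build sugars from acetate and other compounds with few carbon atoms. Its log2 signal was 14.93 and 14.62 on the lactose arrays, 14.40 and 14.40 on the glycerol arrays, and 12.01 and 12.12 on the glucose arrays. *acu3* was thus among the brightest transcripts on lactose and glycerol and was above the array median of 10.8 on glucose too, with no overlap between the glucose arrays and the others. The level was 6.55-fold higher on lactose and 5.03-fold higher on glycerol than on glucose.

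Malate synthase carries out the next step of the glyoxylate cycle, and its gene *acu9* (Trire2:79271) did not meet the limits. The *acu9* signal was 13.93 and 14.09 on lactose, 12.76 and 12.74 on glycerol, and 11.50 and 11.38 on glucose. Lactose arrays were highest here, glycerol arrays lay in between, and no arrays of different carbon sources overlapped. The lactose minus glycerol difference of 1.26 ± 0.12 log2 units (SE; adjusted p = 3.2e-05, limma) placed *acu9* outside the limits, while *acu9* was 5.94-fold higher on lactose and 2.48-fold higher on glycerol than on glucose (adjusted p = 3.4e-07 and 4.0e-05). Both genes of the glyoxylate cycle that could be found by symbol were therefore low on glucose, and they differed in how far lactose and glycerol lay apart.

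The β-glucosidase gene *cel3b* (Trire2:121735) showed the largest difference among the members with a symbol. β-Glucosidases split cellobiose, the disaccharide released by cellulases, into glucose. The *cel3b* signal was 10.19 and 10.10 on lactose, 10.40 and 10.09 on glycerol, and 5.62 and 6.27 on glucose. The 4 lactose and glycerol arrays spanned 0.31 log2 units, and the glucose arrays were far below them. *cel3b* was 18.4-fold higher on lactose and 19.7-fold higher on glycerol than on glucose.

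None of the 4 other β-glucosidase genes with a symbol had this pattern, and they are named here after their values were seen. All 5 genes were higher on lactose than on glucose by limma. Only *cel3b* was higher on glycerol than on glucose, with *cel1a* and *cel1b* lower and *cel3a* and *cel3c* past no threshold. On the log2 scale the lactose minus glucose differences were 4.40 in *cel1a*, 2.02 in *cel1b*, 1.08 in *cel3a* and 3.02 in *cel3c*. The glycerol minus glucose differences were -2.46 in *cel1a*, -1.29 in *cel1b*, -0.01 in *cel3a* and -0.05 in *cel3c*. Among these genes *cel3b* was thus the one in which glycerol mycelia reached the level of lactose mycelia.

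The gene *lxr1* (Trire2:74194) is named for L-xylulose reductase, an enzyme of the fungal breakdown of L-arabinose. Its signal was 13.01 and 12.90 on lactose, 13.88 and 13.76 on glycerol, and 11.86 and 11.82 on glucose. Here glycerol arrays were the highest and lactose arrays lay between the others, with no overlap. *lxr1* was 2.16-fold higher on lactose and 3.94-fold higher on glycerol than on glucose, and its lactose minus glycerol difference of -0.87 was near the limit of the choice.

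Of 7 genes listed by symbol for the use of galactose and pentoses, *lxr1* was the only member. The list rests on the symbols alone, and the function of *lxr1* was not tested. The list gave 4 genes higher and 2 lower on lactose than on glucose, and 3 higher and 3 lower on glycerol than on glucose, with medians of 0.49 and 0.05 log2 units. The Leloir pathway genes, which convert galactose to a glucose phosphate, were lower on lactose and glycerol than on glucose or passed no threshold. The galactokinase gene *gal1* had a lactose minus glucose difference of -2.98 and a glycerol minus glucose difference of -0.86 log2 units, so that its glucose signal was the highest. *gal7* likewise fell on both (differences of -1.15 and -1.74), and *gal10* passed no threshold (-0.09 and 0.05). In the pentose pathway *lad1*, for L-arabinitol dehydrogenase, was 2.95 log2 units higher on lactose and 0.72 higher on glycerol than on glucose. The xylose reductase gene *xyl1* was 1.49 higher on lactose but had a glycerol minus glucose difference of -0.94. The xylitol dehydrogenase gene *xdh1* was 0.49 and 0.47 log2 units above glucose, a pattern like that of the members but below their limit.

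The last gene with a symbol is *phr1* (Trire2:107680), for a DNA photolyase, which repairs ultraviolet damage with the energy of light. Its signal was 10.54 and 10.48 on lactose, 10.32 and 10.83 on glycerol, and 8.65 and 8.66 on glucose. Lactose and glycerol arrays overlapped and both lay above the glucose arrays, by 3.62-fold for lactose and 3.79-fold for glycerol. Other genes of the light response were looked at after this value was seen. The photoreceptor gene *env1* was 0.72 ± 0.12 log2 units higher on lactose and 0.65 ± 0.12 higher on glycerol than on glucose (SE; adjusted p = 0.0010 and 0.0031, limma). *blr1* and *blr2*, whose products sense blue light, passed no threshold, with differences from glucose between -0.02 and 0.22. The sources used here do not say how the flasks were lit.

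**Figure D2:**
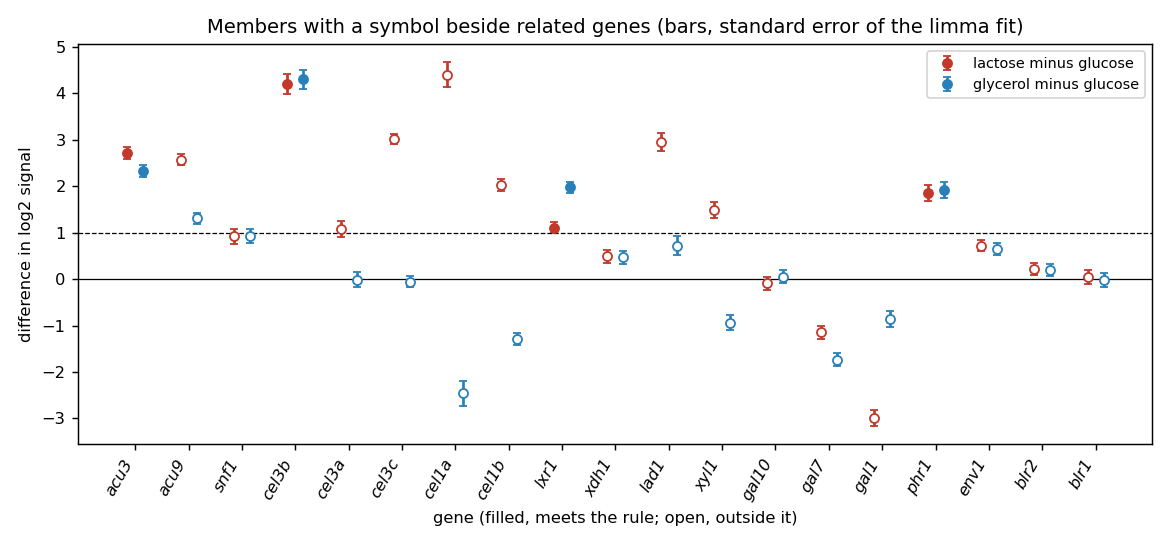
Differences from glucose in log2 signal for the 4 members with a symbol (filled circles) and for related genes outside the set (open circles), lactose minus glucose in red and glycerol minus glucose in blue; bars show the standard error of the limma fit over 6 arrays and the dashed line the limit of 1. In *cel3b*, *phr1* and *acu3* both circles stand together above the limit, whereas in *cel1a* they stand at 4.40 and -2.46.

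Regulators of carbon catabolite repression and of cellulases were not among the members. Of 8 such genes described here, 3 were higher and 1 was lower on lactose than on glucose by limma, and 1 was higher and 0 lower on glycerol than on glucose, with medians of 0.19 and 0.09 log2 units. The repressor gene *cre1* was 0.34 ± 0.13 log2 units higher on lactose than on glucose (SE; adjusted p = 0.048, limma), and its glycerol minus glucose difference of 0.19 passed no threshold. Transcripts of the cellulase activator gene *xyr1* were 28.2-fold higher on lactose and 2.73-fold higher on glycerol than on glucose, so that this gene was low on glucose too but was set apart by its lactose level. The repressor gene *ace1*, and *hap3* and *hap5* for subunits of the CCAAT-binding complex, passed no threshold against glucose, while *hap2* of the same complex had a lactose minus glucose difference of -0.49. The glycerol minus glucose difference of *hap2* was similar, at -0.46, but passed no threshold. Its glucose arrays lay apart, at 12.80 and 12.27. Of *creb* and *crec*, named for proteins that act in carbon catabolite repression in *Aspergillus nidulans*, *creb* passed no threshold against glucose and *crec* was 0.38 log2 units higher on lactose.

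The largest differences from glucose lay in genes without a known name. Trire2:120697 led the set, with a signal of 11.73 and 11.73 on lactose, 12.31 and 11.85 on glycerol, and 4.49 and 5.17 on glucose. It was 119-fold higher on lactose and 152-fold higher on glycerol than on glucose. The glucose signals lay close to 4.66, the value below which 10% of all signals fell, so that this transcript was near the dim end of the arrays on glucose and above their median of 10.8 on the other carbon sources.

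Trire2:120823 had a signal of 13.77 and 13.63 on lactose, 13.77 and 13.43 on glycerol, and 7.05 and 7.06 on glucose. Its folds over glucose were 100.2 on lactose and 93.2 on glycerol. Its glucose signals lay well above the dim end of the arrays, and it had the highest lactose and glycerol signals among the 12 genes with the largest differences.

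Trire2:111915 had a signal of 9.71 and 10.00 on lactose, 10.92 and 10.17 on glycerol, and 3.37 and 3.42 on glucose, which gave folds of 88.3 and 142. Trire2:55990 had a signal of 9.18 and 9.39 on lactose, 8.28 and 8.75 on glycerol, and 3.12 and 2.89 on glucose, with folds of 77.6 and 45.7. Both were below the 10% value on both glucose arrays. The array values carry no call of detection, and for such genes the fold depends on where the dim end of the arrays lies.

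Trire2:120031 had a signal of 12.64 and 12.57 on lactose, 13.28 and 13.17 on glycerol, and 6.43 and 6.55 on glucose. It was 69.4-fold higher on lactose and 107-fold higher on glycerol than on glucose. Trire2:122374 had 11.07 and 11.07 on lactose, 11.47 and 11.07 on glycerol, and 5.41 and 5.46 on glucose, with folds of 49.9 and 57.2. In both genes the glucose arrays were close to each other, and a wide empty range lay between these and the other 4 arrays.

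The next 6 genes by the smaller difference were Trire2:123976, Trire2:123079, Trire2:104549, Trire2:37525, Trire2:69834 and Trire2:5836. Their folds over glucose ran from 21.3 to 40.4 on lactose and from 28.8 to 50.8 on glycerol. Trire2:123976 stood for them with a signal of 12.50 and 12.62 on lactose, 13.10 and 13.32 on glycerol, and 7.42 and 7.66 on glucose. In 4 of these 6 genes the glycerol mean was above the lactose mean, and in Trire2:104549 and Trire2:37525 the lactose mean was the higher. Among all 12 genes named so far for their size of difference, Trire2:120823, Trire2:55990, Trire2:104549 and Trire2:37525 were higher on lactose than on glycerol and the other 8 lower.

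**Figure D3:**
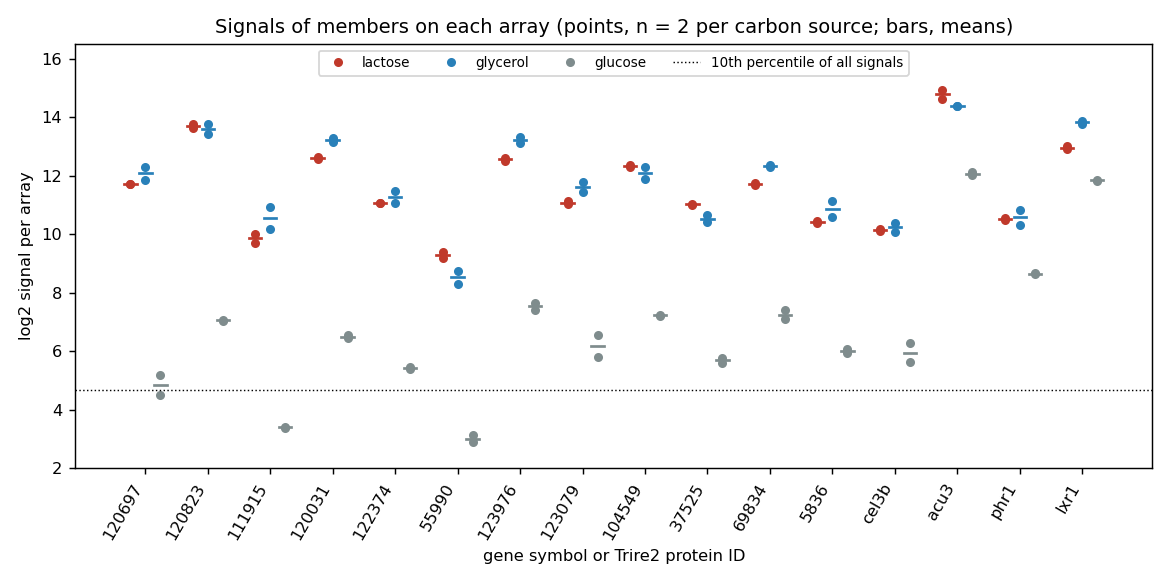
Log2 signal on each array (points, 2 per carbon source; short bars, means) for the 12 genes with the largest smaller difference from glucose, left, and the 4 members with a symbol, right, with lactose in red, glycerol in blue and glucose in grey. The glucose points lie below all other points of the same gene. Those of Trire2:111915 and Trire2:55990 lie under the dotted line at 4.66, the 10th percentile of all signals. The lower glucose point of Trire2:120697, at 4.49, lies under that line too.

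On lactose and glycerol the members were somewhat brighter than genes at large, and on glucose clearly dimmer. The choice used these same signals, so a lower place on glucose than on the others follows from it. The values are a description. Their median signal was 11.52 on lactose, 11.47 on glycerol and 9.26 on glucose, beside 10.84, 10.81 and 10.84 for all genes. In the order of all genes the median member stood at percentile 62.1 on lactose, 60.6 on glycerol and 31.0 on glucose. On lactose 138 members were above the median of all genes, on glycerol 139 and on glucose 58. The brightest 10% of all genes on lactose held 19.8% of the members. Their gene models had a median length of 1412 bp, beside 1503 bp for all genes.

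**Figure D4:**
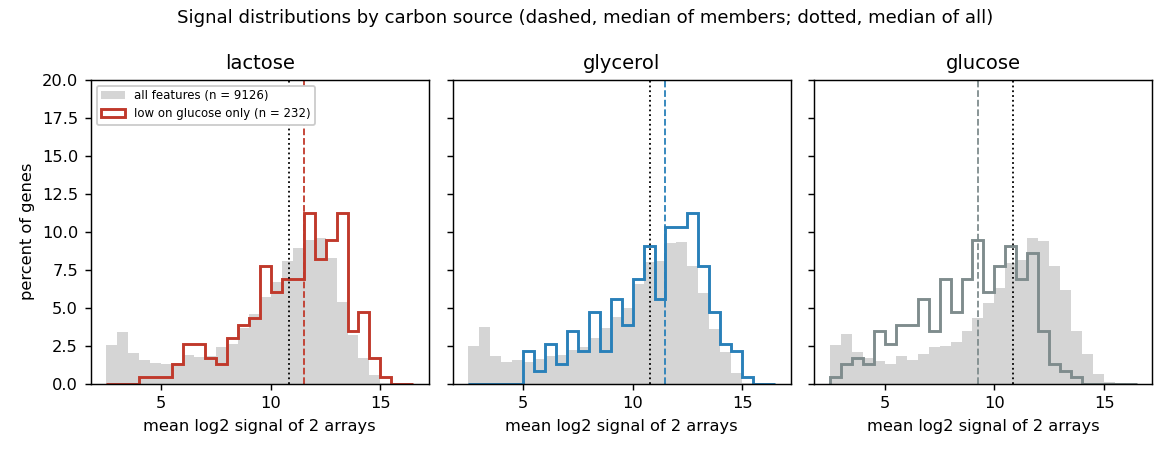
Distribution of the mean log2 signal of 2 arrays on lactose, glycerol and glucose, in percent of genes per 0.5 log2 units, for the 232 members (coloured outline) and all 9126 genes (grey). Dashed lines give the members' medians (11.52, 11.47 and 9.26) and dotted lines those of all genes (10.84, 10.81 and 10.84): the outline lies to the right of the grey on lactose and glycerol and to the left on glucose. The members were chosen by these same signals.

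The glucose signals themselves covered a wide range, with means from 2.74 to 13.80. At a mean log2 signal of 12 or more, 14 members were bright even there, and 14 others lay below the 10% value of 4.66. 1 of these dim genes, Trire2:67030 (named after its values were seen), was below it on lactose as well, with means of 4.32 on lactose, 5.18 on glycerol and 3.30 on glucose. The size of the difference went with the glucose level: the 78 members with the lowest glucose signals had a median smaller fold of 3.27, the 77 in the middle 3.0 and the 77 with the highest 2.44. Differences of at least 4-fold on both carbon sources were found in 30, 25 and 11 genes of these groups. As the choice used the glucose signal, this order is given as a description.

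The brightest member on glucose, Trire2:123475, had a signal of 15.10 and 15.06 on lactose, 15.37 and 15.42 on glycerol, and 13.77 and 13.83 on glucose. Despite its high level in all mycelia, its glucose arrays were 1 log2 unit or more below the others, with folds of 2.44 on lactose and 3.03 on glycerol. Trire2:121717 was bright too, with 14.74 and 14.74 on lactose, 14.96 and 14.75 on glycerol, and 12.40 and 12.46 on glucose. Its folds of 4.94 and 5.38 were the largest among the 8 members brightest on glucose, which also comprised Trire2:75854, Trire2:123686, Trire2:124293, Trire2:122127, Trire2:65718 and Trire2:42848. In the other 7 the folds over glucose ran from 2.12 to 3.86 on lactose and from 2.17 to 3.65 on glycerol. In all, 10 members, *acu3* among them, had mean signals of 14 or more on both lactose and glycerol.

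Lactose and glycerol signals were close by the choice of the genes, yet they were not equal. The lactose minus glycerol difference had a median of 0.14 log2 units over the members and of -0.05 over all genes, and it ran from -0.99 to 0.99. The lactose mean was the higher in 138 members and the glycerol mean in 94, and in 33 members they were within 0.1 log2 units. By limma 80 members (34.5%) were higher on lactose than on glycerol, beside 28.3% of all genes, 48 (20.7%) were lower, beside 31.5%, and 104 passed no threshold. Without lactose replicate 1 the 128 calls became 77. The limits of the choice act on this contrast as well, and nothing is read from these shares.

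At the lactose end stood Trire2:122582, Trire2:124115 and Trire2:103668, which were 1.99-, 1.99- and 1.97-fold higher on lactose than on glycerol. Trire2:124115 had a signal of 13.46 and 13.33 on lactose, 12.27 and 12.54 on glycerol, and 9.69 and 9.75 on glucose, so that both other carbon sources lay far above glucose and well apart from each other. At the glycerol end stood Trire2:123207, Trire2:109337 and Trire2:121746, which were 1.98-, 1.97- and 1.97-fold higher on glycerol than on lactose. Trire2:123207 had a signal of 12.35 and 12.45 on lactose, 13.28 and 13.49 on glycerol, and 9.85 and 10.05 on glucose. A total of 42 members lay within 0.25 log2 units of this limit. Genes at these ends have a graded rather than a shared level on the carbon sources other than glucose, and *lxr1* is one of them.

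Replicate arrays agreed closely for most members. The gap between both arrays of a carbon source had a median of 0.093 log2 units on lactose, 0.21 on glycerol and 0.14 on glucose, beside 0.12, 0.17 and 0.13 for all genes. A gap over 0.5 was found in 36 members. The widest was on glucose in Trire2:120983, at 11.14 and 11.91, and the same gene had 12.97 and 13.13 on lactose and 13.24 and 12.99 on glycerol. Even there the higher glucose array was below the other 4. Trire2:111915 and Trire2:107554 had wide gaps on glycerol (10.92 and 10.17 in the first, 12.04 and 11.31 in the other), and Trire2:123079 on glucose (6.55 and 5.81). In 17 members both arrays of a carbon source held the same value, as in 568 genes of the whole array.

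All 6 arrays had medians between 10.80 and 10.85, and arrays of 1 carbon source correlated across genes with r from 0.996 to 0.998. The labelled tissue was mycelium. Genes for conidiation and the hydrophobin genes *hfb1*, *hfb2* and *hfb3* had been listed as markers of conidia, and they went different ways. The genes annotated for conidia were found through the study's annotation, so they could not have the members' close lactose and glycerol signals. That they lay outside the members' pattern was thus fixed in advance and is no result. *hfb2* and *hfb3*, listed by symbol, met the limits of the choice before they were left out. Trire2:5084, annotated as conidiation-specific protein 10, was 4.21 log2 units higher on lactose and had a glycerol minus glucose difference of -1.51, and the WetA gene Trire2:4430 had differences of 1.11 and -1.0. Both were thus higher on lactose than on glucose and lower on glycerol than on glucose by limma. Of the hydrophobin genes left out, *hfb3* was 1247-fold higher on lactose and 1524-fold higher on glycerol than on glucose, and *hfb2* was 95.3-fold and 114-fold higher. *hfb1* was 5.55-fold higher on glycerol but 0.80-fold on lactose, which did not pass the threshold. The part of the development of the mycelium in the members' values was not tested.

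The array genes were put in the order of the RefSeq annotation. A direct neighbour was the next gene in that order, at whatever distance. Of the 232 members 41 (17.7%) had another member as a direct neighbour, in 20 runs, beside 4.99% of all genes with a position. All but 1 of the runs were pairs. The run of 3 comprised Trire2:120008, Trire2:55561 and Trire2:74580. Trire2:74580 had a signal of 14.138 and 14.094 on lactose, 13.998 and 14.058 on glycerol, and 10.123 and 10.226 on glucose, which gave folds of 15.4 and 14.5. Trire2:55561 was 3.72- and 3.07-fold and Trire2:120008 was 2.35- and 3.29-fold higher on lactose and glycerol than on glucose. A further member, Trire2:33827, noticed after the values were seen, lay 3 genes before this run, while the genes in between were less than 1 log2 unit above glucose.

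Some pairs joined genes with unlike sizes of difference, and others joined genes with similar ones. Trire2:120823, the gene with 100.2-fold higher signals on lactose, stood next to Trire2:42825, which was 1.35 log2 units higher on lactose and 1.22 on glycerol than on glucose. Trire2:123616, with differences of 3.23 and 3.40, stood next to Trire2:68192, with 1.53 and 1.21. In the pair of Trire2:123686 and Trire2:123687 the differences were alike, at 1.67 and 1.69 in the first and 1.74 and 1.52 in the other, but the glucose means were 13.23 and 8.06. Pairs and their values were chosen for naming after they were seen.

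The 413 direct neighbours that were not members had median differences from glucose of 0.04 on lactose and 0.05 on glycerol, beside -0.06 and -0.03 for all genes with a position. They were at least 1 log2 unit above glucose in 17.9% on lactose and 14.8% on glycerol, beside 15.6% and 9.08% of all genes with a position. At least 1 log2 unit below glucose on lactose were 11.1% of the neighbours and 13.9% of all. Members were removed from these neighbours but not from all genes, so the shares do not tell how often neighbours share the pattern. Among the neighbours, 74 are annotated by the study, 39 of them with a function, and those named here, with the members beside them, were picked after their values were seen.

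On 1 side of *acu3* lies *snf1* (Trire2:45998), 93 bases away between the gene models. In yeast the Snf1 kinase is needed for growth on carbon sources other than glucose. The *snf1* signal was 12.82 and 12.52 on lactose, 12.80 and 12.56 on glycerol, and 11.65 and 11.85 on glucose, with lactose and glycerol arrays overlapping each other and none reaching down to the glucose arrays. The differences of 0.92 ± 0.15 on lactose and 0.93 ± 0.15 on glycerol (SE; adjusted p = 0.00088 and 0.0013, limma) were just under the limit of 1. The gene on the other side of *acu3*, Trire2:120676, had differences of 0.04 and 0.21 and did not share the pattern. Trire2:104856, the member nearest to the limit, lay 4 genes from *acu3*. Between it and *snf1*, Trire2:57472 had differences of 0.62 and 0.12 and Trire2:58184 of 0.31 and 0.27.

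At other places annotated neighbours are described. The study annotates only genes that differed on lactose from both other carbon sources, so these could not have the members' close lactose and glycerol signals. Trire2:120697, the leading gene, lay 136 bases from a gene annotated as an alcohol dehydrogenase, Trire2:120696, which was 1.75 log2 units higher on lactose but only 0.19 on glycerol than on glucose. On its other side the C2H2 regulator gene Trire2:120698 had differences of 2.11 on lactose and -0.55 on glycerol. Of these 3 genes in a row, only the member was high on glycerol. Trire2:69834 lay 108 bases from a gene for a GH27 α-galactosidase, Trire2:72704, which was 2.83 log2 units higher on lactose and 1.75 on glycerol and so was low on glucose without meeting the lactose and glycerol limit. On the other side of Trire2:69834 came the member Trire2:111875 and then Trire2:111874, annotated as swollenin 2. The differences of Trire2:111874 were -2.15 on lactose and 0.23 on glycerol. The swollenin gene that the paper lists as higher on lactose is another gene.

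**Figure D5:**
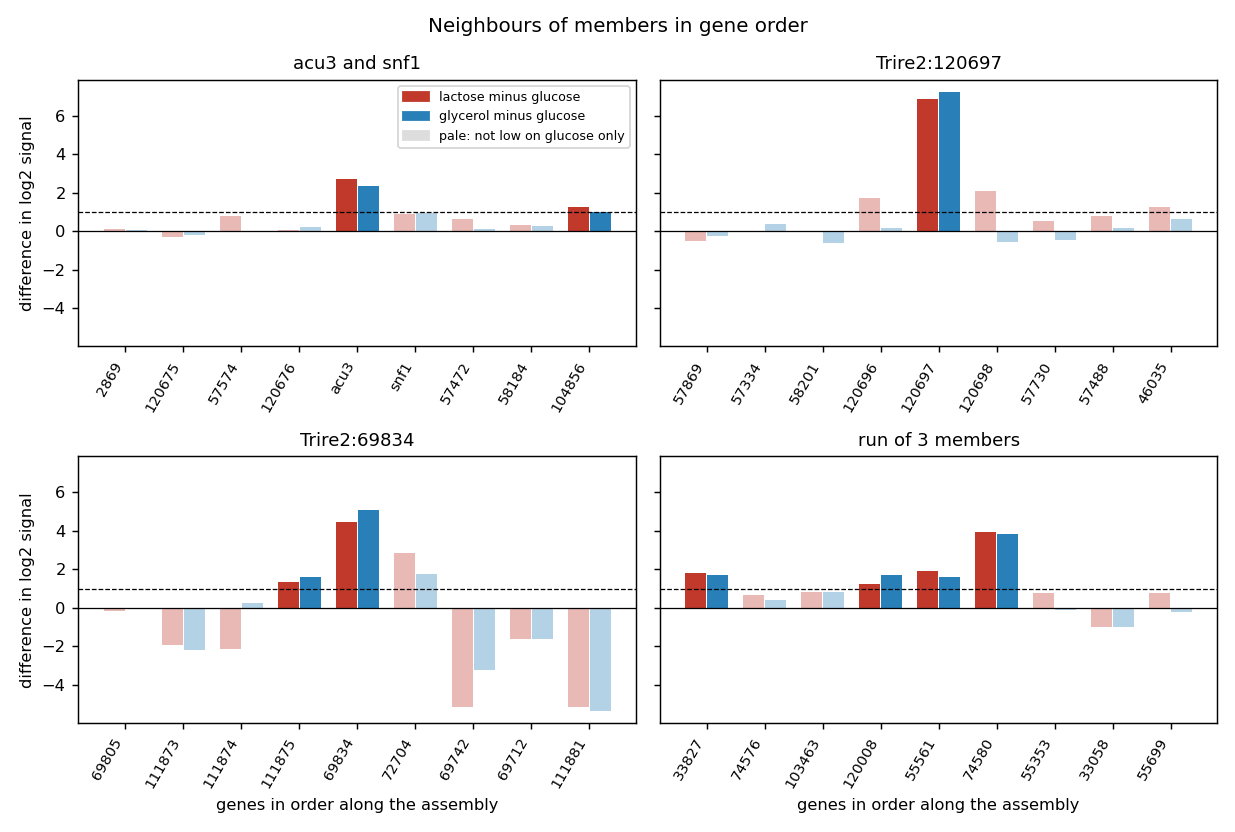
Lactose minus glucose (red) and glycerol minus glucose (blue) differences in log2 signal for genes in their order along the assembly, around *acu3*, Trire2:120697, Trire2:69834 and the run of 3 members; strong colours mark members, pale colours other genes, and the dashed line is the limit of 1. Around Trire2:120697 the bars reach 6.90 and 7.25 in the member and 2.11 or less in the genes beside it.

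Of the annotated neighbours 9 are permease or transporter genes. On lactose 7 of them were at least 1 log2 unit above glucose and 2 at least 1 below, and on glycerol 2 were at least 1 above and 2 at least 1 below. The tables of the study hold only genes that differed on lactose, so these counts are a description. Trire2:80340 was 3.57 log2 units higher on lactose and 2.96 on glycerol than on glucose, and its neighbour *hxt1* (Trire2:22912), annotated as a glucose permease, was 51.7-fold higher on lactose and 5.87-fold higher on glycerol than on glucose. Their gene models lay 4639 bases apart. Both were low on glucose, but *hxt1* was 8.80-fold higher on lactose than on glycerol. Trire2:72488, with differences of 2.33 and 1.58, stood next to a transporter gene of the major facilitator superfamily, Trire2:5656, with 4.74 and 3.04. Trire2:108663 was 2.94 and 3.29 log2 units above glucose, and the permease gene beside it, Trire2:79202, had differences of 5.07 on lactose and -1.36 on glycerol. The neighbours lower on lactose were the amino acid transporter gene Trire2:68831 beside Trire2:111357, with -6.44 on lactose and -5.05 on glycerol, and the transporter gene Trire2:65583 beside Trire2:124338, with -2.45 and -0.85. Between the gene models lay 7955 bases at the first place and 1605 at the other. The members beside them, Trire2:111357 and Trire2:124338, had differences of 2.04 and 1.78 and of 2.34 and 2.27.

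Regulator, receptor and other annotated genes next to members had varied differences from glucose. Their annotation by the study again means that their lactose and glycerol signals could not be close. Trire2:121308 was 4.52 log2 units higher on lactose and 4.24 on glycerol, and the Zn2Cys6 regulator gene Trire2:106259 beside it had differences of 3.05 and -0.08. Trire2:46127 had differences of 1.86 and 1.28, and its neighbour Trire2:57526, annotated as a pheromone receptor and 3694 bases away, had 3.998 and -0.03. *lxr1* stood next to a GH92 mannosidase gene, Trire2:74198, which was 5.33 log2 units higher on lactose and 0.94 on glycerol than on glucose. Trire2:106539, with differences of 1.53 and 1.38, stood next in gene order to the gene annotated as hydrophobin HFB5, Trire2:106538, which was 54.2-fold higher on lactose and 22.7-fold higher on glycerol than on glucose. Between these gene models lay 7509 bases. The other hydrophobin gene found by annotation, Trire2:105869, is not a neighbour of a member and had differences of -3.50 on lactose and -0.78 on glycerol.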

How the data were processed

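RNA was measured on 6 NimbleGen arrays with 60-mer probes, 2 per carbon source. The authors deposited RMA-summarised values on the log2 scale for each gene on each array. For the version of RMA, the background correction and the normalization the entry is: not given in the sources used here. In the deposited table of means no value was more than 5e-06 from the mean computed from both arrays. Its p-value and F value columns, which hold the authors' own comparison, and its folds were not used. Unused columns with values of single arrays numbered 0.

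The log2 values entered limma 3.58.1 in R 4.3.3 unchanged, with all 3 groups in 1 fit without covariates, eBayes at its defaults and Benjamini-Hochberg adjustment over all 9126 genes (threshold 0.05). The fit had 3 residual degrees of freedom and a prior SD of 0.135 (5.10 prior degrees of freedom). The number of arrays limits the precision. Counts and figures used Python 3.11.15 with numpy 2.4.6, pandas 2.3.3 and matplotlib 3.10.9.

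Members and lists were chosen with earlier results of these data known. Genes were named if they had a symbol, were among the 12 with the largest smaller difference, the 8 brightest on glucose, the 3 at each end of lactose minus glycerol, the 4 with the widest gap between arrays, in a run of 3, or up to 3 on each side of a limit. Lists came from RefSeq symbols and the annotation of the study. Of the array genes, 9094 matched a RefSeq locus of the QM6a assembly, used for gene order and spacing only. Its table names no sequences, so each drop in the start position was taken as the start of another sequence, which gave 61. Planned lists from the annotation of the study (glycosyl hydrolases, permeases, amino acid transporters, Zn2Cys6 factors, cytochromes P450, ribosomal, proteasome and mitochondrial proteins, sexual development) held 0 members. The limits of the choice fixed this 0, as that annotation covers only genes that differed on lactose from both other carbon sources. Members can still belong to such families, as the β-glucosidase gene *cel3b* does. Sequence features were not analysed here. A gene of the regulator list is not reported here.

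Alternatives were other limits, leaving out each array, a replicate block, trend and robust options, fits of 2 groups, quantile normalization, median centring, a filter on dim genes, a floor and a stricter adjusted p.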

Additional observations from a re-analysis of the deposited data

How the results depend on the processing

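The limits set the size of the set. A glucose limit of 1.5-fold gave 456 genes and one of 4-fold gave 66. Leaving out 1 array at a time gave 235 to 249 genes, of which 211 to 227 were among the 232. Median centring gave 241, quantile normalization 239, and a lactose and glycerol limit of 1.5-fold gave 160. Requiring each glucose array to lie at least 1 log2 unit below every other array gave 183, a floor at the dim end 227, and leaving out the dimmest 25% of genes 185. Settings added after the data were seen gave 256 genes on the arrays numbered 1, 239 on those numbered 2, and 334 with a lactose and glycerol limit of 4-fold.

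The choice of genes fixes the limma calls against glucose, which were 232 in each fit (185 without the dimmest genes) and say nothing about stability. The 128 calls between lactose and glycerol became 84 at an adjusted p under 0.01. Leaving out 1 array at a time gave 77 to 120 calls, the 77 without lactose replicate 1; the lone array is then assumed to vary like the other groups. With the replicate number as a block the calls were 232, 232 and 121. Same-numbered arrays of different groups had deviations with r from -0.14 to 0.07, so the numbers were not taken to pair the arrays. For the 38 members named by the fixed rule, 38 of 342 values under the alternatives moved by over 1 SD and by up to 0.39 log2 units. A change of sign was all but excluded by the limits. The dim end of the arrays limits the folds of the 14 members under 4.66 on glucose.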
